A study of Homo sapiens with 16 samples.

Results

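The 10 genes described here, APOA1 (ENSG00000118137), APOA2 (ENSG00000158874), APOA5 (ENSG00000110243), APOB (ENSG00000084674), APOC1 (ENSG00000130208), APOC3 (ENSG00000110245), APOE (ENSG00000130203), APOH (ENSG00000091583), APOM (ENSG00000204444) and APOL1 (ENSG00000100342), encode apolipoproteins, the protein components of plasma lipoproteins. They were taken by gene symbol from a table of 56969 genes, and all 10 were found and tested. The study compared HepG2 cells, an established human liver cancer line, that received siRNA against HCF-1 with HepG2 cells that received a control siRNA. HCF-1 is a chromatin-bound transcriptional cofactor encoded by HCFC1. Every culture went through 2 reverse transfections placed 2 days apart, and RNA was taken 2 days after the later one. Poly(A) RNA from 8 cultures per group, which the labels call biological replicates, was made into stranded libraries and sequenced. The cells carry no other stated alteration, no siRNA sequences were given in the labels, and each group had 1 siRNA condition in 1 cell line.

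Values are the authors' normalized counts, which are reads per gene divided by a size factor of the library. Log2 fold changes are HCF-1 siRNA over control siRNA on the log2(normalized count + 1) scale with their standard errors, 8 libraries against 8. Adjusted p-values are from limma with Benjamini-Hochberg adjustment over all 16081 genes tested, and a gene was said to have risen or fallen at an adjusted p under 0.05. Libraries held 25098840 to 43186890 recovered reads after HCF-1 siRNA and 21030830 to 32820459 after control siRNA (exact permutation test of the means, two-sided, p = 0.0375). HCFC1 itself was at 3112 to 4171 normalized counts after HCF-1 siRNA and at 4851 to 6878 after control siRNA, with no overlap (log2 fold change -0.61 ± 0.07, limma adjusted p = 4.52e-06). The knockdown was therefore partial at the RNA level, at 65.5% of the control level on that scale.

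Hepatocytes build very-low-density lipoprotein around APOB, the large non-exchangeable scaffold that takes up lipid in the endoplasmic reticulum with the help of a transfer protein. They also secrete the small exchangeable apolipoproteins, which move between particles and act as ligands for receptors, activators or inhibitors of lipases, and acceptors of cellular cholesterol. HepG2 cells secrete lipoproteins and are widely used to study them.

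After HCF-1 siRNA 7 of the 10 genes rose. The 7 were APOH, APOC3, APOM, APOB, APOL1, APOE and APOC1, and APOA1, APOA2 and APOA5 did not pass. Across all genes 36.6% passed the test, 18.2% with a higher level after HCF-1 siRNA. All 10 log2 fold changes were above 0, and 0 of the 10 fell by limma, by limma's unadjusted p under 0.05, by edgeR or by DESeq2. The median log2 fold change of the 10 was 0.20, against 0.01 over all genes tested. The changes were small. A rise of at least 1.5-fold was found for 1 of the 10, APOH, where 5.65% of all genes rose by that much. All 8 HCF-1 siRNA libraries lay above all 8 control libraries for 3 of the 10, APOH, APOM and APOL1, where 4.59% of all genes did so.

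**Figure D1:**
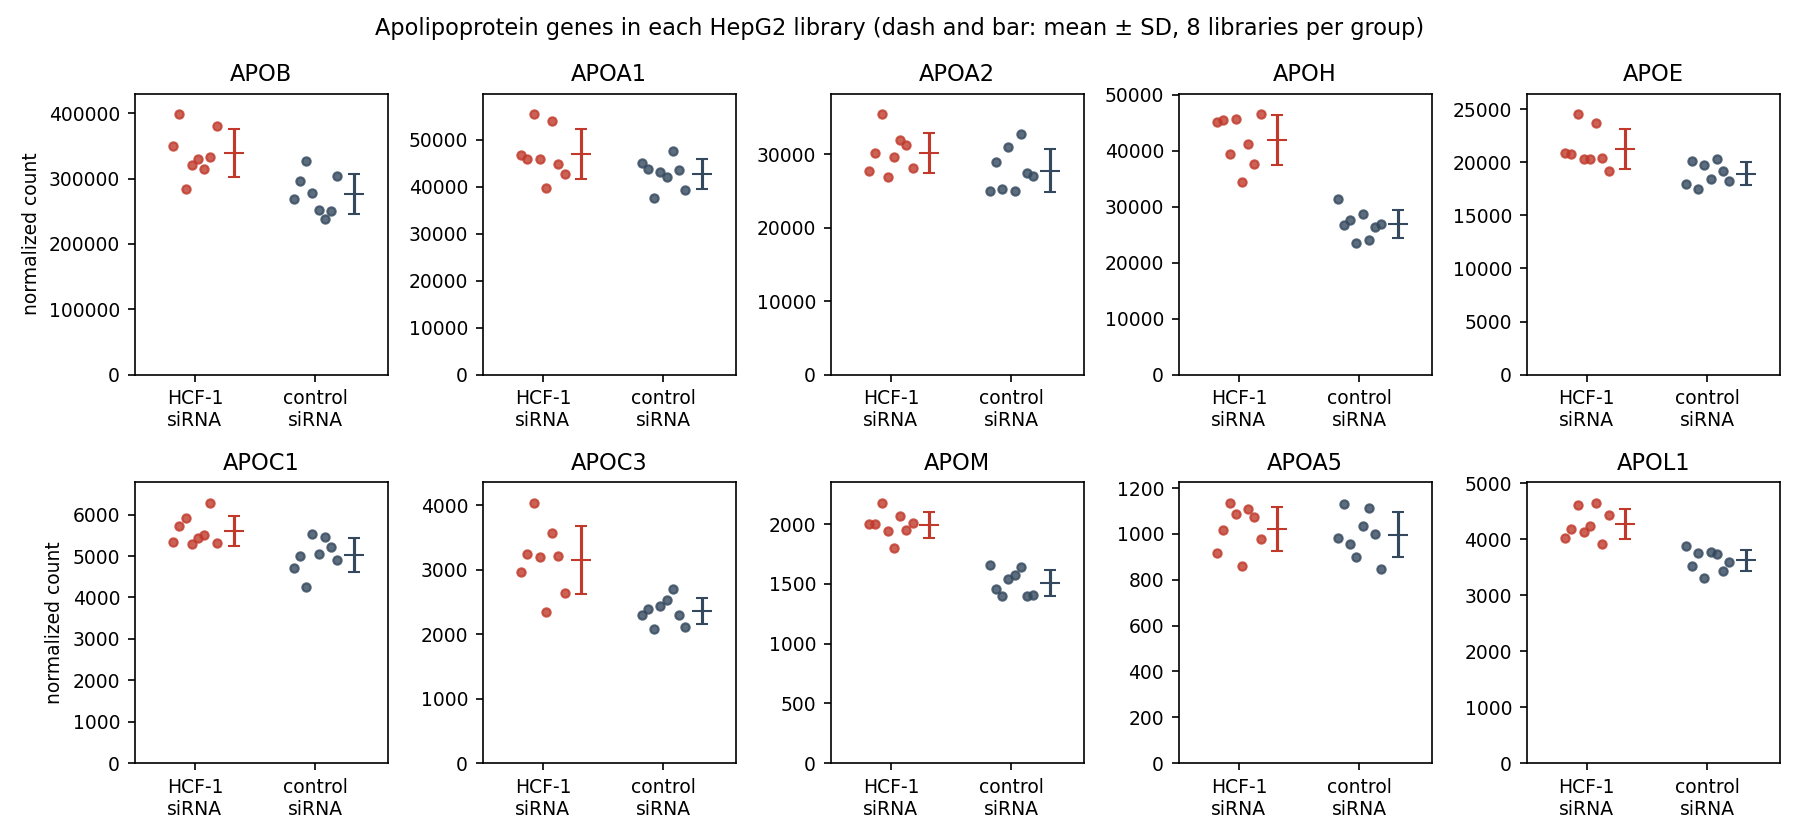
Normalized count of each apolipoprotein gene (vertical axes, starting at 0) in the 8 HCF-1 siRNA libraries on the left and the 8 control siRNA libraries on the right of each panel. Points are libraries, and the dash and bar beside them are the mean and SD. The point clouds are apart for APOH, APOM and APOL1, and lie over each other for APOA5.

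APOB, the scaffold of very-low-density and low-density lipoprotein, was the most abundant of the 10 by count and ranked 3 among all genes by mean. It was at 284596 to 398367 normalized counts after HCF-1 siRNA (median 331683), against 238302 to 327032 after control siRNA (median 273683). The groups overlapped, with 5 of 8 HCF-1 siRNA libraries above every control library. The log2 fold change was 0.29 ± 0.07 (limma adjusted p = 0.0037). The direction of this change depended on how transcript length was treated, and it was -0.21 (adjusted p = 0.0618) with the length trend of each library as a covariate, as described with that trend.

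Among the apolipoproteins of high-density lipoprotein, APOM rose and the major structural ones, APOA1 and APOA2, did not pass on the deposited values. Both passed under the 2 alternative treatments of transcript length, as described with the length trend. APOM, which carries the lipid mediator sphingosine 1-phosphate, was at 1799 to 2179 normalized counts after HCF-1 siRNA (median 2004), against 1395 to 1660 after control siRNA (median 1502). No library of one group fell within the range of the other, and the log2 fold change was 0.40 ± 0.05 (limma adjusted p = 8.46e-06). In GENCODE annotation 136 exonic bases of APOM lie opposite exons of BAG6, and since the sources used here do not state whether reads were counted by strand, reads there cannot be assigned.

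APOA1, the main structural protein of high-density lipoprotein and the acceptor of cholesterol exported by ABCA1, was at 39740 to 55457 normalized counts after HCF-1 siRNA (median 45989), against 37660 to 47721 after control siRNA (median 43306). Only 2 of 8 HCF-1 siRNA libraries, replicates 3 and 6, lay above every control library. The log2 fold change was 0.13 ± 0.06, with a 95% confidence interval of -0.004 to 0.26 (limma adjusted p = 0.121). Without HCF-1 siRNA replicate 5, the lowest of its group, the gene passed (log2 fold change 0.16, limma adjusted p = 0.0432). The antisense gene APOA1-AS shares 123 exonic bases with APOA1 on the opposite strand, so the limit given for APOM holds there too. APOA2, the other major protein of these particles, was at 26979 to 35470 normalized counts after HCF-1 siRNA (median 29953), against 24967 to 32764 after control siRNA (median 27271), and 1 of 8 HCF-1 siRNA libraries exceeded every control library. Its log2 fold change was 0.12 ± 0.06 (95% confidence interval -0.01 to 0.25, limma adjusted p = 0.149).

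Of the apolipoproteins chosen here that govern triglyceride clearance, the inhibitor APOC3 rose and the activator APOA5 did not pass. APOC2, an activator of lipoprotein lipase that was not among the genes chosen, is named here for its role and did not pass either. It was at 4929 to 5814 normalized counts after HCF-1 siRNA, against 4601 to 5864 after control siRNA. Its log2 fold change was 0.04 ± 0.05 (limma adjusted p = 0.538). APOC3, which slows lipoprotein lipase and the uptake of remnants by liver, was at 2337 to 4034 normalized counts after HCF-1 siRNA (median 3202), against 2083 to 2695 after control siRNA (median 2340). It had the widest spread of the 7 that rose relative to its level after HCF-1 siRNA, with replicate 3 the highest and replicate 5 the lowest, and 6 of 8 HCF-1 siRNA libraries lay above every control library. The log2 fold change was 0.41 ± 0.09 (limma adjusted p = 0.00186).

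APOA5, which promotes lipolysis of triglyceride-rich particles, was the least abundant of the 10. It was at 862 to 1136 normalized counts after HCF-1 siRNA (median 1046), against 847 to 1133 after control siRNA (median 991), and the ranges nearly coincided. The log2 fold change was 0.04 ± 0.07, and its 95% confidence interval of -0.11 to 0.19 leaves room for a change of either sign (limma adjusted p = 0.704).

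APOE and APOC1, neighbours on chromosome 19, each rose by a small amount, while APOC2 of the same cluster did not pass. APOE, a ligand for the uptake of remnant particles, was at 19142 to 24513 normalized counts after HCF-1 siRNA (median 20572), against 17490 to 20282 after control siRNA (median 18782). All but 1 HCF-1 siRNA library lay above every control library, with replicates 3 and 6 the highest, and the log2 fold change was 0.16 ± 0.05 (limma adjusted p = 0.014). APOC1, an inhibitor of cholesteryl ester transfer protein, was at 5292 to 6284 normalized counts after HCF-1 siRNA (median 5475), against 4242 to 5532 after control siRNA (median 5030). Here 3 of 8 HCF-1 siRNA libraries lay above every control library, and the log2 fold change was 0.16 ± 0.05 (limma adjusted p = 0.0213).

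APOH changed most. It encodes beta-2-glycoprotein I, a phospholipid-binding plasma protein known as the main antigen in the antiphospholipid syndrome. It was at 34392 to 46527 normalized counts after HCF-1 siRNA (median 43132), against 23597 to 31316 after control siRNA (median 26798). The lowest HCF-1 siRNA library, replicate 5, was above the highest control library, replicate 1. The log2 fold change was 0.64 ± 0.07, a 1.56-fold rise with a 95% confidence interval of 1.41 to 1.72 (limma adjusted p = 1.56e-06).

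APOL1, an apolipoprotein of a trypanosome-lysing high-density lipoprotein fraction, was at 3923 to 4652 normalized counts after HCF-1 siRNA (median 4211), against 3311 to 3873 after control siRNA (median 3664). The ranges did not overlap, by a narrow margin, and the log2 fold change was 0.24 ± 0.04 (limma adjusted p = 4.11e-04). With the length slope as a covariate it did not pass (adjusted p = 0.0903). APOL1 has close paralogues, and the sources used here do not say how reads shared among them were counted. Its neighbour in the family APOL2 also rose (log2 fold change 0.43 ± 0.05, limma adjusted p = 2.22e-06).

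Genes of the same chromosomal cluster did not all move by the same amount. APOC3, APOA1 and APOA5 lie in 1 cluster on chromosome 11, and a ratio taken within a library does not depend on its scaling. The ratio of APOC3 to APOA1 was 0.0588 to 0.0728 after HCF-1 siRNA (median 0.0678), against 0.0508 to 0.0602 after control siRNA (median 0.0548). It was above every control value in 7 of 8 HCF-1 siRNA libraries, and its log2 difference was 0.28 ± 0.05 (SE, two-sided exact permutation p = 3.11e-04, adjusted over 3 ratios 9.32e-04). APOC3 thus rose relative to its neighbour, a difference already contained in their separate log2 fold changes of 0.41 and 0.13. The genes were chosen with earlier results of these data known, so the p-value of the ratio is descriptive.

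The ratio of APOA5 to APOA1 was 0.0197 to 0.0240 after HCF-1 siRNA and 0.0209 to 0.0258 after control siRNA, with a log2 difference of -0.09 ± 0.05 (two-sided exact permutation p = 0.123, adjusted 0.185). The ratio of APOC1 to APOE was 0.232 to 0.308 after HCF-1 siRNA and 0.243 to 0.280 after control siRNA, with a log2 difference of -0.003 ± 0.05 (two-sided exact permutation p = 0.956). A ratio that misses the threshold does not show that the pair moved alike.

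**Figure D2:**
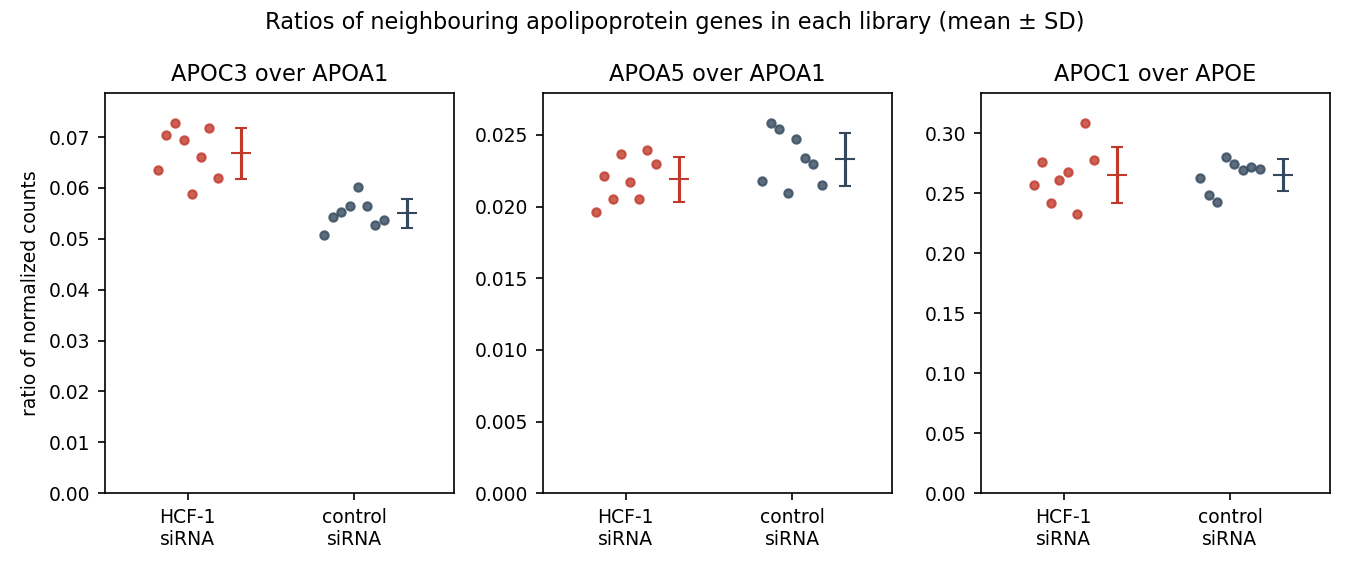
Ratio of normalized counts of neighbouring apolipoprotein genes (vertical axes, starting at 0) in the 8 HCF-1 siRNA libraries on the left and the 8 control siRNA libraries on the right, with mean and SD. The ratio of APOC3 to APOA1 lies above every control value in 7 of 8 HCF-1 siRNA libraries, and the other ratios overlap widely.

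Promoter sequences are shown for 2 genes that rose without overlap, APOM and APOH, and for APOA5, which did not pass. They are RefSeq windows on GRCh38.p14 of 250 bases before to 50 bases after a gene start, printed 5′ to 3′ on the strand of the gene, with motif matches in capitals. The 3 windows are chr6:31655644-31655943 on the plus strand for APOM, chr17:66229366-66229665 on the minus strand for APOH and chr11:116792371-116792670 on the minus strand for 1 of the starts of APOA5.
APOM: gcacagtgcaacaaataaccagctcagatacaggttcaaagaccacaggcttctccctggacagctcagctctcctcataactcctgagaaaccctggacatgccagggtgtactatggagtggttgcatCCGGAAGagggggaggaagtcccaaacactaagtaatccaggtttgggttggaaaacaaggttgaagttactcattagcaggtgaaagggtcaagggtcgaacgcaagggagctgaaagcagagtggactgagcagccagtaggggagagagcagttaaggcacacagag
APOH: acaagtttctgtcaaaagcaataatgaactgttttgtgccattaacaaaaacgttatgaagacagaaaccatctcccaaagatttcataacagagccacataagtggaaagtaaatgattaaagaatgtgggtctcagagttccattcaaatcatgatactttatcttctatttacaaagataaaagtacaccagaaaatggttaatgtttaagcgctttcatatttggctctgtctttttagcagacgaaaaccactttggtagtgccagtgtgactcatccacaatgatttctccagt
APOA5: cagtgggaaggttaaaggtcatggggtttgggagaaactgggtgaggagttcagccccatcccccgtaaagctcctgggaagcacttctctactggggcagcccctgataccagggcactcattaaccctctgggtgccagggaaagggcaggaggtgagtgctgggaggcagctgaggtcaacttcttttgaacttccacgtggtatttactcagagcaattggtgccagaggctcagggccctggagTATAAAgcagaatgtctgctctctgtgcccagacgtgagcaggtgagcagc

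The RefSeq table held 9 promoters for 6 of the 10 genes, APOA2, APOA5, APOC1, APOE, APOH and APOM. They were searched on both strands for the letters of the motifs given here. CCGGAAG, the core bound by GABPA, was found in the APOM window, starting 120 bases before the gene start on the strand of the gene, and 10.3% of the 35116 promoters in the table hold it. TATAAA, the TATA box, was found in the APOA5 window shown, where it overlaps the start, and 11.5% of all promoters hold it. The other 7 promoters held no match to any of them. The remaining motifs and the share of all promoters with each were ACTACAA of THAP11 and ZNF143, which recruit HCF-1 (2.77%), TTTGGCGC and TTTCCCGC of E2F (0.652% and 1.63%), and CAAAGTCCA and CAAAGTTCA of HNF4A (0.384% and 0.296%). TGACGTCA, the cyclic AMP response element, was in 1.85%, and GAAANNGAA, the interferon response element, in 8.11%. A match is a description of letters and not a bound site.

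The 10 genes together took 1.59% to 1.93% of all normalized counts in a library after HCF-1 siRNA (median 1.70%), against 1.34% to 1.605% after control siRNA (median 1.45%). APOB made up most of this, with a mean of 1.19% after HCF-1 siRNA and 0.989% after control siRNA. On the scale of normalized counts per kilobase of transcript, which removes the advantage of long transcripts, the order was different. APOA2 led with a mean level of 63715 per kilobase after HCF-1 siRNA and 58677 after control siRNA, followed by APOA1 with 38255 and 34891. APOH had 35666 per kilobase after HCF-1 siRNA and 22877 after control siRNA, and APOB had 24013 and 19603. The smallest levels per kilobase were those of APOM (1685 after HCF-1 siRNA, 1276 after control siRNA), APOL1 (1425 and 1208) and APOA5 (530.3 and 516). Neighbours in this order whose libraries overlapped were APOA1 and APOH, APOB and APOE, and APOM and APOL1 after HCF-1 siRNA, and APOH and APOB, and APOM and APOL1 after control siRNA. APOH thus moved up to within the range of APOA1 after HCF-1 siRNA. All these levels rest on 1 transcript length per gene from GENCODE, from 474 bases for APOA2 to 14121 bases for APOB.

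Long and short transcripts moved apart between the groups, and this bears on APOB. For each library the slope of gene deviations on log2 transcript length was taken over 12432 genes. It was 0.00671 to 0.0550 log2 units per doubling of length after HCF-1 siRNA (median 0.0324), against -0.0570 to 0.00370 after control siRNA (median -0.0315), with no overlap (two-sided exact permutation p = 1.55e-04, the smallest that 12870 splits give). Over all genes the median log2 fold change was -0.06 for 1822 genes under 1000 bases, -0.09 for 3138 genes of 1000 to 2000 bases and 0.14 for 952 genes of at least 8000 bases.

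APOB is the longest of the 10, and its level followed the slope within each group. Pearson's r was 0.93 among the 8 HCF-1 siRNA libraries (exact permutation p = 0.00122, adjusted over 20 relations 0.0243). Among the 8 control libraries it was 0.88 (exact permutation p = 0.00372, adjusted 0.028). Spearman's rho was 0.95 after HCF-1 siRNA and 0.90 after control siRNA (exact permutation adjusted p = 0.0228 and 0.0456). Without the 2 libraries farthest from the median slope, r was 0.86 after HCF-1 siRNA and 0.67 after control siRNA. For the short genes r was negative or weak. It was -0.74 for APOA1 and -0.83 for APOE after HCF-1 siRNA (exact permutation adjusted p = 0.0963 and 0.0291). After control siRNA it was -0.88 and -0.72 (adjusted 0.028 and 0.0963). Without the 2 farthest libraries r lay between -0.58 and -0.32 in these 4 cases. By Spearman's rho, from -0.74 to -0.57, none of the 4 passed (exact permutation adjusted p from 0.183 to 0.302). APOH had r of 0.40 after HCF-1 siRNA and 0.44 after control siRNA (adjusted p = 0.385 each by exact permutation).

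**Figure D3:**
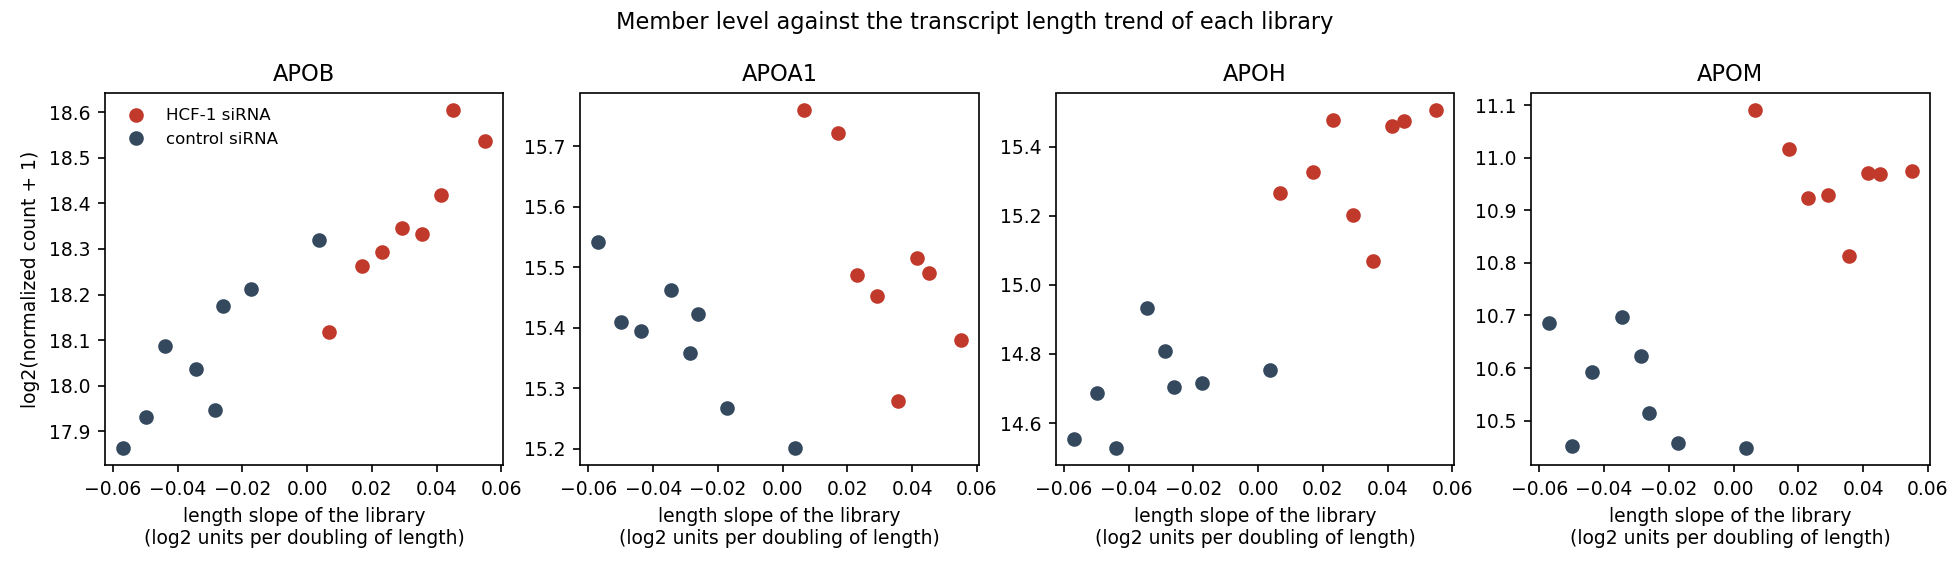
Level of APOB, APOA1, APOH and APOM as log2(normalized count + 1) against the length slope of the library in log2 units per doubling of transcript length, for 8 HCF-1 siRNA libraries (red) and 8 control siRNA libraries (dark blue). APOB rises with the slope within each group, and its heights overlap between the groups. APOH and APOM lie at separate heights in the 2 groups.

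With the trend taken out of each library, the log2 fold change of APOB was 0.15 ± 0.05 (limma adjusted p = 0.0432), and with the slope as a covariate it was -0.21 ± 0.07 (adjusted p = 0.0618). Most short genes moved the other way under these alternatives, which were chosen after seeing the data. APOA1 was at 0.21 ± 0.06 (adjusted p = 0.00787) and 0.50 ± 0.09 (adjusted p = 0.00212), and APOA2 at 0.29 ± 0.05 (adjusted p = 4.46e-04) and 0.44 ± 0.11 (adjusted p = 0.0144), so both passed in limma. APOC3 was at 0.56 ± 0.08 and 0.88 ± 0.15, APOM at 0.48 ± 0.05 and 0.56 ± 0.10, and APOE at 0.25 ± 0.04 and 0.44 ± 0.07. APOC1 was at 0.29 ± 0.04 and 0.42 ± 0.09, and APOH at 0.72 ± 0.07 and 0.42 ± 0.14 (limma adjusted p = 0.049 with the covariate). APOL1, of 3000 bases, was at 0.24 ± 0.04 and 0.25 ± 0.09 and did not pass with the covariate (limma adjusted p = 0.0903). Since the slope and the siRNA separate the libraries in the same way, a change of long transcripts by the siRNA and a difference in the libraries cannot be told apart.

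**Figure D4:**
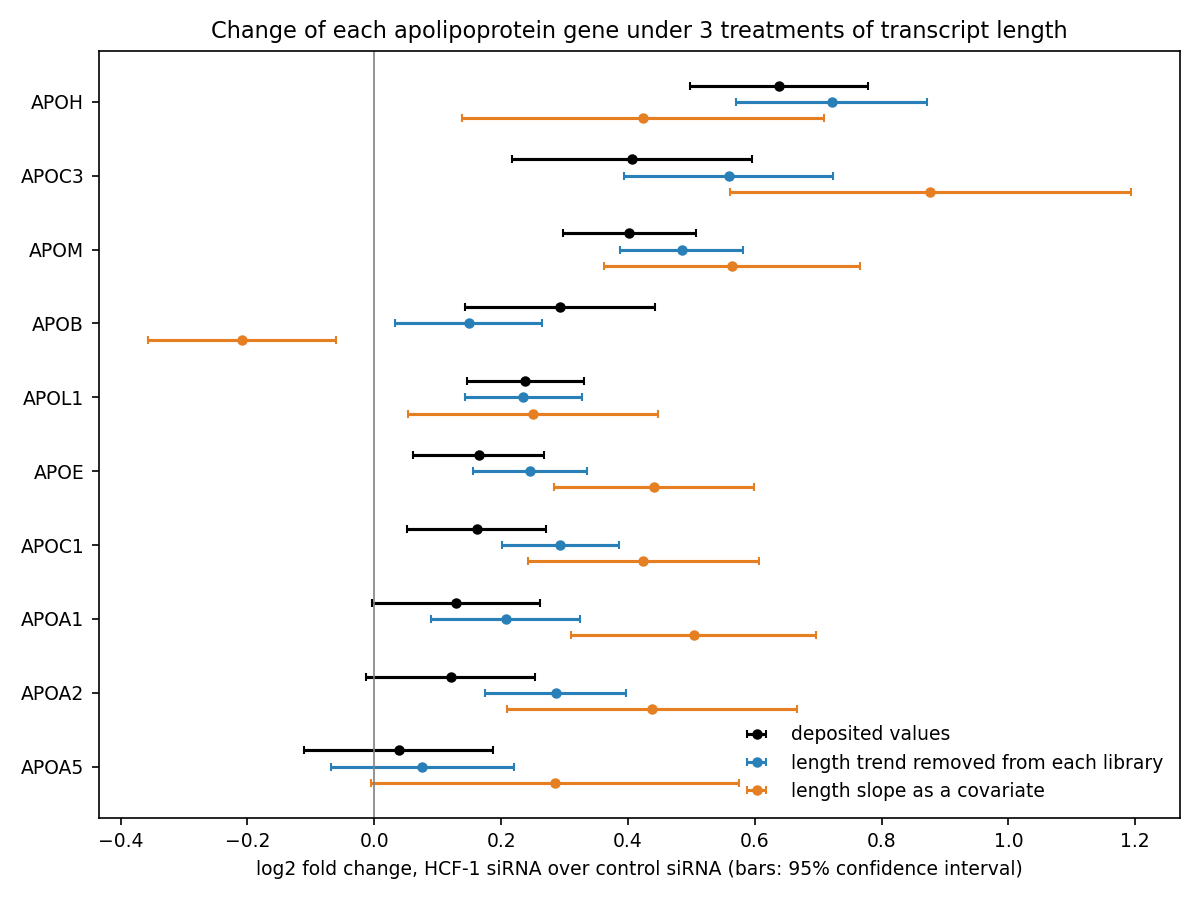
Log2 fold change of each apolipoprotein gene (HCF-1 siRNA over control siRNA, horizontal axis) with its 95% confidence interval, from the deposited values (black), with the length trend removed from each library (blue) and with the length slope as a covariate (orange). APOB is at 0.29 on the deposited values and at -0.21 with the covariate, and APOC3 is at 0.41 and 0.88.

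Of the 8 genes under 2000 bases 5 rose on the deposited values, APOH, APOC3, APOM, APOE and APOC1. Among all 4960 genes under that length 11.8% rose and 24.5% fell.

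For each of the 10, the gene with the most similar profile over the 16 libraries was found among 12728 other genes as that with the smallest root mean square difference of centred log2 values. For APOH it was AFP, the fetal albumin-like plasma protein (0.08 log2 units), and for APOM it was TF, the iron carrier transferrin (0.05). APOL1 was closest to F10, coagulation factor X (0.06), and APOB to LIN7C (0.06), a scaffold protein of cell junctions. The nearest profiles of the others were those of SARDH for APOA1 (0.06), GRAMD1A for APOA2 (0.07), MRPS24 for APOA5 (0.09), MRPL27 for APOC1 (0.05), METTL7A for APOC3 (0.12) and STRN4 for APOE (0.05). Within the 10, APOE and APOA1 were closest to each other (0.07). The nearest of the 10 to APOH was APOM at 0.19, which ranked 165 among all genes compared, and the nearest to APOB was APOL1 at 0.18, which ranked 1430.

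Other genes of lipoprotein metabolism and of liver were counted by list, beside the same 36.6% of all genes that passed and a median of 0.01. Where 0 members of a list passed in 1 direction, edgeR also found 0, and DESeq2 did except for 1 mesenchymal marker that it placed higher. At an unadjusted limma p under 0.05 these zeros stayed 0 except for 1 higher gene each in APOB mRNA editing, the interferon-stimulated genes and the mesenchymal markers. With the length slope as a covariate fewer of these genes passed, and ABCB4, PPARGC1A, APOF, ISG15, IFITM3, ALB, AFP, F10, LAPTM5, ESAM and COL1A1, all described next or above, were among those that did not (limma adjusted p from 0.0532 to 0.906).

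Of 12 measured apolipoprotein genes outside the 10, including high-density lipoprotein-associated proteins, 3 rose, 1 fell and 8 did not pass (median log2 fold change 0.05). CLU, the chaperone clusterin (0.22 ± 0.05, limma adjusted p = 0.00278), and APOL2 rose, and APOF, an inhibitor of cholesteryl ester transfer protein, fell (-0.48 ± 0.12, adjusted p = 0.00563). The other gene that rose was PON1 (0.99 ± 0.28, adjusted p = 0.0104), a lactonase carried on high-density lipoprotein, at 25.4 to 53.5 normalized counts after HCF-1 siRNA and 6.11 to 29.8 after control siRNA, and it was named after its values were seen.

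Of 13 genes of lipoprotein assembly and secretion 4 rose, 2 fell and 7 did not pass (median 0.07). MTTP, the transfer protein that loads lipid onto APOB, was at 3569 to 4335 normalized counts after HCF-1 siRNA, against 2911 to 3890 after control siRNA (log2 fold change 0.24 ± 0.06, limma adjusted p = 0.00461), and is named here for its role. AADAC, a lipase of the endoplasmic reticulum (0.64 ± 0.16), TMEM41B, a lipid scramblase (0.44 ± 0.09), and MIA3, a cargo receptor for large secreted particles (0.40 ± 0.07), also rose. The 2 that fell were PLA2G12B (-0.28 ± 0.07, limma adjusted p = 0.00416) and LPCAT3 (-0.24 ± 0.06, adjusted p = 0.00252). Both were named after their values were seen. With the length slope as a covariate none of the 13 passed by limma in either direction, MTTP included, and AADAC was at -0.09. No gene of APOB mRNA editing passed among 2 measured. A1CF, the RNA-binding cofactor of the editing enzyme, had a log2 fold change of 0.15 ± 0.07 (limma adjusted p = 0.101), and with the length slope as a covariate it passed as lower (-0.29, adjusted p = 0.0424).

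Of 8 measured plasma lipase and lipid transfer genes 4 rose, none fell and 4 did not pass (median 0.21). LCAT, which esterifies cholesterol on high-density lipoprotein (0.44 ± 0.09, limma adjusted p = 0.00137), and LIPC, hepatic lipase (0.30 ± 0.05, adjusted p = 2.38e-04), were among those that rose. LIPG, endothelial lipase, also rose (2.21 ± 0.39, adjusted p = 2.67e-04), at 21.6 to 67.4 normalized counts after HCF-1 siRNA and 1.86 to 23.4 after control siRNA, and it was named after its values were seen.

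Of 13 measured receptor and uptake genes 6 rose, 3 fell and 4 did not pass (median 0.08). Of 5 sterol and phospholipid exporters 4 rose and 1 did not pass (median 0.49), among them ABCA1, which loads cholesterol onto APOA1 (0.60 ± 0.04, limma adjusted p = 3.89e-08), ABCG5, a sterol exporter of bile (0.55 ± 0.08), and ABCB4, a phospholipid exporter of bile (0.49 ± 0.14). APOA1 itself did not pass in the same libraries on the deposited values, though it passed under both length alternatives.

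Of 30 transcription regulators of apolipoprotein genes 10 rose, none fell and 20 did not pass (median 0.13). The largest changes were those of PPARGC1A, a coactivator (1.32 ± 0.18), MLXIPL, a carbohydrate-responsive factor (0.89 ± 0.10), and ONECUT1, a liver factor (0.72 ± 0.17). ONECUT1 turned to -0.35 with the length slope as a covariate. HNF4A, a nuclear receptor that drives many apolipoprotein genes, was at 0.13 ± 0.05 (limma adjusted p = 0.0357).

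Of 11 interferon-stimulated genes, included because interferon raises APOL1, none rose, 2 fell and 9 did not pass (median -0.06). ISG15 (-0.70 ± 0.10, limma adjusted p = 3.35e-05) and IFITM3 (-0.42 ± 0.05, adjusted p = 1.16e-05) fell. The part of interferon in the change of APOL1 was not tested. Of 15 other plasma proteins of liver 9 rose, 3 fell and 3 did not pass (median 0.13). TTR, transthyretin (0.63 ± 0.06), and ALB, albumin (0.52 ± 0.06), rose, and FGB, fibrinogen beta (-0.50 ± 0.05), fell.

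**Figure D5:**
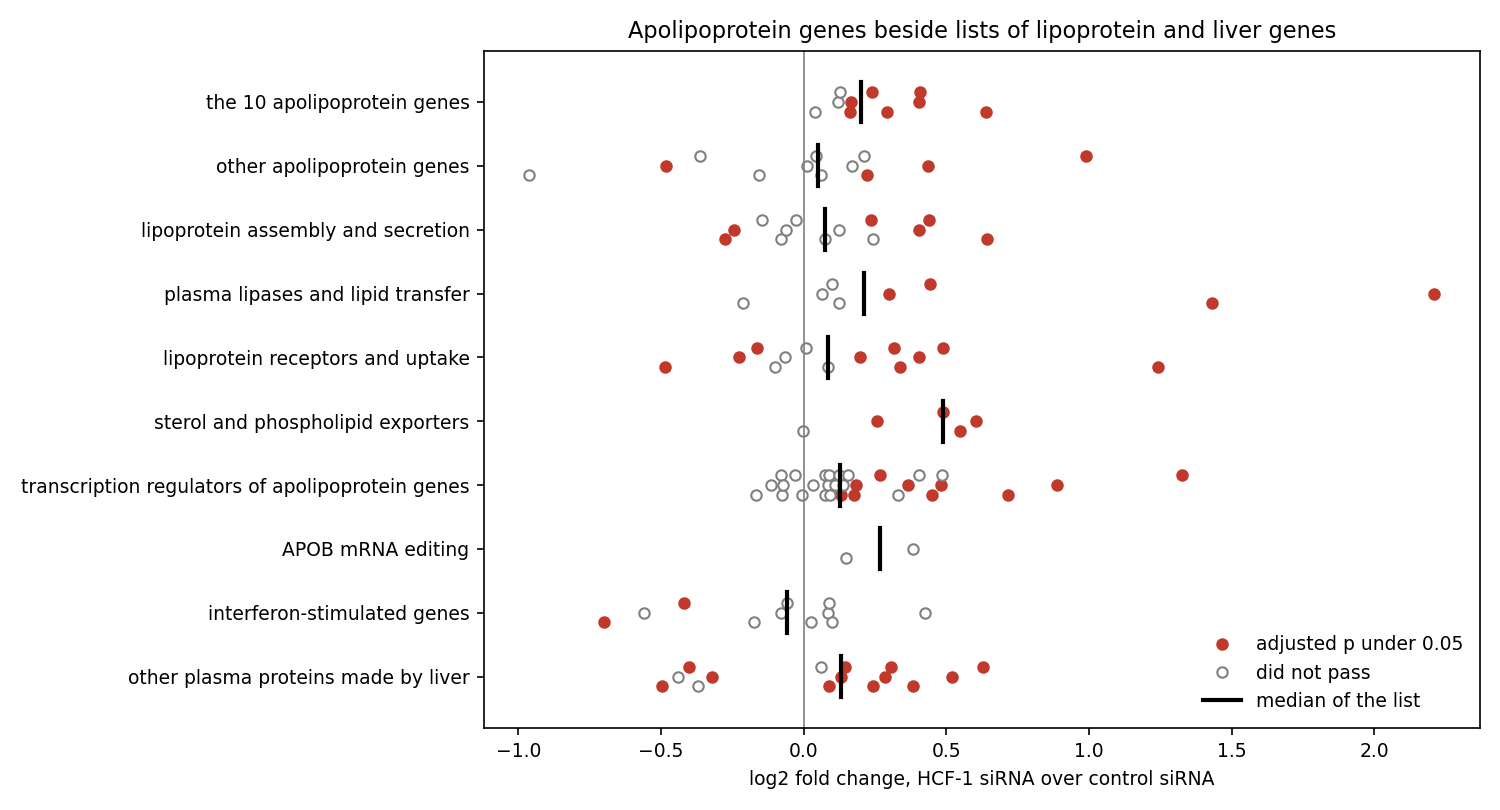
Log2 fold change (HCF-1 siRNA over control siRNA, horizontal axis) of the 10 apolipoprotein genes and of the measured members of 9 lists (rows). Filled points passed at an adjusted p under 0.05, open points did not, and the bar is the median of the list. The 10 lie between 0.04 and 0.64.

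Hepatocyte markers checked the cell label. Their summed level was 556457 to 656803 normalized counts after HCF-1 siRNA and 462365 to 543690 after control siRNA, and 7 of 8 rose and FGB fell, with AFP (0.58 ± 0.07) and TTR among the largest changes. Markers of other cell types summed to less, and some, such as TAGLN at 2609 to 3560 normalized counts after control siRNA, were not low. Those of blood cells summed to 1320 to 1542 normalized counts after HCF-1 siRNA and 1335 to 1610 after control siRNA, with CD3E at 0 throughout and 3 of 7 under a mean of 10, and of 4 tested only LAPTM5 changed (-0.32 ± 0.08). Endothelial markers summed to 281 to 421 after HCF-1 siRNA and 397 to 537 after control siRNA, with KDR and CLEC4G at 0, and of 3 tested only ESAM changed (-0.89 ± 0.13). Mesenchymal markers summed to 4065 to 5326 after HCF-1 siRNA and 5292 to 6888 after control siRNA, and TAGLN (-0.83 ± 0.07) and COL1A1 (-0.56 ± 0.15) fell among 5 tested. The part of these shifts in the rise of the apolipoprotein genes was not tested. In such bulk RNA of 1 cell line, a change in all cells and a change in a part of them cannot be told apart.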

How the data were processed

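RNA of 8 HCF-1 siRNA and 8 control siRNA HepG2 cultures was compared. The authors deposited normalized counts (1 signal value for each Ensembl gene in each library). The submitters' processing notes name STAR 2.4.1d, cutadapt 1.4.2, DESeq2 1.16.1, featureCounts 1.4.4 and build hg19. Annotation release, strand setting and filters were not given in the sources used here. Whole reads were recovered for 100% of values, at a tolerance of 0.001 of the read count. At high counts, those of APOB among them, this tolerance reaches any nearest whole number. The check therefore cannot fail there and is informative for low counts only.

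Genes with a mean of 10 or more were tested with limma 3.58.1 in R 4.3.3 (trend and robust options) on log2(normalized count + 1), which understates the change of low genes. Members and gene lists were chosen with earlier results of these data known, so lists are described by counts only. Named genes were the 10, HCFC1, in each list the 3 genes that changed most among those that passed and averaged 50 or more in either group (or the most abundant gene where none passed), and the nearest profile of each member. Some genes and motifs so selected are not reported here. Transcript length came from GENCODE 29 by Ensembl identifier, for 96.6% of genes tested. Simulated counts were used to test the limma step. Alternatives were other pseudocounts, filters and scalings, edgeR 4.0.16, DESeq2 1.42.0, thinned reads, leaving out each library, and a block for replicate number. P-values measure the spread between cultures of 1 cell line.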

Additional observations from a re-analysis of the deposited data

Results flagged for a closer look

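PPARGC1A was at 1740 normalized counts in HCF-1 siRNA replicate 6, far above the 912 to 1276 of the other 7 HCF-1 siRNA libraries. It was the only such value among 92 groups of 8 libraries examined, which is fewer than the about 1 in 20 that chance gives. No apolipoprotein gene had a library that stood apart in this way.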

How the results depend on the processing

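Calls of the 10 apolipoprotein genes held under the 26 alternatives that leave transcript length aside, except that APOA1 also passed without HCF-1 siRNA replicate 5. Leaving out 1 library in turn, the log2 fold change of APOA1 ran from 0.0928 to 0.1615, and 7 to 8 of the 10 passed. The difference in the log2 ratio of APOC1 to APOE ran from -0.0348 to 0.0235 and never passed by exact permutation.

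Of the list counts, plasma lipase and lipid transfer genes that passed were 2 in place of 4 with a filter at a mean of 50, blood cell markers 2 in place of 1 with thinned reads, and endothelial markers 2 in place of 1 with no filter. Leaving out 1 library, blood cell and endothelial markers that passed were 1 to 2 each and APOB editing genes 0 to 1.

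The 2 length alternatives, chosen after seeing the data, moved more results. With the trend removed from each library 9 of the 10 passed, APOA1 at 0.21 and APOA2 at 0.29. With the slope as a covariate 2071 genes passed (1029 higher, 1042 lower) in place of 5879, and 22 of the lipoprotein pathway genes in place of 39. The slope separates the groups without overlap, so this alternative has less information on the siRNA. APOA1 was at 0.50, APOA2 at 0.44, APOL1 at 0.25 (limma adjusted p = 0.0903) and APOB at -0.21, and 7 of the 10 passed, without APOB and APOL1. Of the other named genes AADAC was at -0.0943, ONECUT1 at -0.35, A1CF at -0.29 (passing, adjusted p = 0.0424 by limma) and LIN7C at -0.22. MRPS24 was at -0.0025 with total-count scaling.

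Over 34 other named genes, 923 of 951 alternative values kept direction and call, 13 lost the call, 10 gained it and 5 reversed. edgeR called 5853 genes and DESeq2 6258, each with the same count of 7 apolipoprotein genes. With a replicate block 5484 genes and 7 apolipoprotein genes passed, and the block changed no call of a named gene. Same-numbered deviations correlated at -0.13 to 0.138, and 2 of 8 numbers matched best with their own. Such values cannot show whether same-numbered cultures were handled together, which the labels do not state. The least abundant of the 10 genes, APOA5, had 847 normalized counts in its lowest library.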
